A study of Mus musculus with 12 samples.

Results

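The 10 genes described here carry the steroid and peptide hormone output of the Leydig cell: Lhcgr, Nr5a1, Scarb1, Star, Cyp11a1, Fdx1, Hsd3b1, Cyp17a1, Hsd17b3 and Insl3. They were chosen by symbol for their known roles, with earlier results of these data known. All 10 were found among the 20718 genes of the deposited table. Their levels were taken in 12 RNA sequencing libraries of testis, 3 from each of 4 groups of F0 mice of a strain given as IRC. In the OV group the testes received a virus that overexpressed lncRNA8276, and in the KD group a virus that inhibited it. The groups 5NC and 3NC are named without spelling out the abbreviation, and no other allele, agent or age is given for any group. They were treated as control groups, with OV compared with 5NC and KD with 3NC. No label states that assignment; it follows the listing order and common vector naming, and each treated group was therefore also compared with the other control. The sources used here give neither the promoter of each vector nor the cells it entered. Nothing says whether the libraries of a group came from separate animals, so p-values measure only the spread between these samples. No symbol in the table carries the digits of lncRNA8276, and its level was not analysed here.

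Leydig cells lie between the seminiferous tubules and make testosterone from cholesterol when luteinising hormone from the pituitary binds its receptor. The signal raises cyclic AMP, cholesterol is moved into the mitochondrion and cut there to pregnenolone, and a chain of enzymes in the smooth endoplasmic reticulum turns pregnenolone into testosterone. The nuclear receptor SF-1, made from Nr5a1, switches on most genes of the chain.

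Libraries held 15448442 to 16355720 estimated reads, and 18611 to 18788 genes had at least 1 read. The 10 genes together took 0.145% to 0.351% of a library. No 2 libraries of a group came near sampling noise: the variance between them was 6.05 to 65.9 times the Poisson value. OV replicate 3 and 3NC replicate 2 stood farthest from the others of their groups, with ratios of 42.7 and 55.3 for OV replicate 3 and 56.6 and 65.9 for 3NC replicate 2. For 5NC replicate 1 the ratios were 30.4 and 22.5, against 10.4 for the other pair of that group. The adult Leydig cell markers among the 10 genes were detected in every library, the lowest being 101 reads of Lhcgr in OV replicate 1. The testis itself showed in the spermatid gene Prm2, at 4760 to 6729 CPM over the 12 libraries (CPM, reads scaled by TMM to a common library total).

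Between genes, levels were compared on the length-scaled values (FPKM), as means ± SD over 12 libraries. Insl3, which encodes the peptide hormone that guides descent of the testis, was highest at 1761 ± 583 FPKM. Cyp17a1, the 17-alpha-hydroxylase and 17,20-lyase that turns progestins into androgens, followed at 345 ± 113 FPKM. Cyp11a1 (97.05 ± 26.9 FPKM) and Hsd3b1 (93.7 ± 19.8 FPKM) lay within each other's spread. Hsd17b3 (56.1 ± 16.9 FPKM), Scarb1 (54.5 ± 6.93 FPKM), Star (52.3 ± 20.4 FPKM) and Fdx1 (35.5 ± 7.63 FPKM) came next, and each was within 1 SD of its neighbour in this order. Nr5a1 (14.1 ± 3.46 FPKM) and Lhcgr (6.86 ± 2.41 FPKM), the regulator and the receptor, were lowest.

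For 6 of the 10 genes RefSeq (GRCm38.p6) gave promoter windows of 250 bases before and 50 bases after a start site, 7 windows in all because Cyp11a1 has a pair of start sites. The windows were searched on both strands for CAAGGNCA, an SF-1 site, found in 0 of 7 windows and in 6.71% of all 32851 windows. A site of GATA factors, AGATAA, was found in 1 of 7 and in 11.2% of all. TGACGTCA, the cyclic AMP response element, was found in 0 of 7 and in 1.79% of all. TATAAA was found in 0 of 7 and in 13.6% of all. Searched after those results were seen, the SF-1 half-site AGGTCA was in 2 of 7 windows, in Lhcgr and at one Cyp11a1 start, and in 16.3% of all. The shorter core AAGGNCA was in 0 of 7 and in 20.3%. AAGGNCA overlaps CAAGGNCA, which contains it, and AGGTCA can overlap both. A match is only a string of letters in the window. The bases before the start site are printed for 3 of the 6 genes with a window: Fdx1, the gene called in OV against 3NC, with none of the strings searched; Lhcgr, with AGGTCA in capitals from position -122; and Hsd3b1, with the reverse complement of AGATAA in capitals from position -134. Positions count back from the start site, each line reads 5′ to 3′ on the strand of the gene, and coordinates are those of GRCm38.p6.

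Fdx1, chr9:51963603-51963852, minus strand: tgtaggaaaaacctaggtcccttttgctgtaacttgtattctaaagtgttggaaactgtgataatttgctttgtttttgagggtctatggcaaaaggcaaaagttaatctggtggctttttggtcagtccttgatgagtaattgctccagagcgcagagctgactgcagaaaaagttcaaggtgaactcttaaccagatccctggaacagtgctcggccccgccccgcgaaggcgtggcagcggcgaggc

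Lhcgr, chr17:88792015-88792264, minus strand: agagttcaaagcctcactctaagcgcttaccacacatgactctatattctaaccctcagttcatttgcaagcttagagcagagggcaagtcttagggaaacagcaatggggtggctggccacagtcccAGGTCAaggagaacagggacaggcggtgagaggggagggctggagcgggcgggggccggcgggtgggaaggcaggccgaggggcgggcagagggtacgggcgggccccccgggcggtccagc

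Hsd3b1, chr3:98859795-98860044, minus strand: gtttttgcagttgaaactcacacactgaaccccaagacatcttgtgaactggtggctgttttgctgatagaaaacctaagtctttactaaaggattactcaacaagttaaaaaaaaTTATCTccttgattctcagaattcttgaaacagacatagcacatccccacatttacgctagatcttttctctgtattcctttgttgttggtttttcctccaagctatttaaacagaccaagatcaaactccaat

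Lhcgr, the receptor for luteinising hormone (chr17:88716384-88792059), had 6.47, 9.34 and 15.1 CPM in OV libraries and 11.5, 24.3 and 16.1 CPM in KD libraries. It had 18.3, 13.3 and 23.4 CPM in 5NC libraries and 14.6, 23.1 and 16.7 CPM in 3NC libraries. OV replicates 1 and 2 were below every library of the other groups, but OV replicate 3 was not. OV and 5NC therefore overlapped in CPM. In FPKM they did not: OV libraries had 2.96, 4.46 and 5.24, and 5NC libraries 9.14, 5.28 and 10.39. Means were 10.3 ± 4.4 CPM in OV, 17.3 ± 6.49 in KD, 18.4 ± 5.08 in 5NC and 18.1 ± 4.46 in 3NC (SD, n = 3 each). Nr5a1, the gene of SF-1 (chr2:38692656-38714542), had 39.5, 33.4 and 36.5 CPM in OV libraries and 36.3, 42.2 and 37.9 CPM in KD libraries, against 64.3, 43.2 and 43.2 CPM in 5NC libraries and 39.6, 28.4 and 34.7 CPM in 3NC libraries. All 3 libraries of 5NC lay above all libraries of the other 3 groups, with 5NC replicate 1 far above the rest. The share of all genes with a whole group apart from every other library was not computed, for Nr5a1 or for the genes below.

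Scarb1, the receptor that takes up cholesterol esters from high-density lipoprotein (chr5:125277087-125341094), had 103, 117 and 107 CPM in OV libraries and 117, 156 and 125 CPM in KD libraries. The control values were 132, 126 and 133 CPM in 5NC and 119, 132 and 153 CPM in 3NC. OV lay below both control groups without overlap; over 12 libraries the highest value was 1.5 times the lowest, the smallest spread of the 10 genes. Star, which moves cholesterol to the inner mitochondrial membrane and is the acutely regulated step (chr8:25808474-25815982), spread most, with a highest value 4.58 times the lowest. It had 84.9, 127 and 232 CPM in OV libraries, 140.3, 210.3 and 170.4 CPM in KD libraries, 207, 191 and 171 CPM in 5NC libraries and 235, 389 and 274 CPM in 3NC libraries. The 3NC libraries were above every other library, by a narrow margin over OV replicate 3.

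Cyp11a1, the side-chain cleavage enzyme that makes pregnenolone (chr9:57998024-58027031), had 91.6, 108 and 158 CPM in OV libraries and 95.7, 185 and 169 CPM in KD libraries. In control libraries it had 184, 137 and 184 CPM in 5NC and 164, 213 and 224 CPM in 3NC. OV was below 3NC without overlap and overlapped 5NC. Fdx1, the ferredoxin that passes electrons to mitochondrial P450 enzymes such as Cyp11a1 (chr9:51943023-51963602), had 30.1, 32.3 and 39.1 CPM in OV libraries, 34.0, 40.7 and 34.2 CPM in KD libraries, 42.2, 37.9 and 37.0 CPM in 5NC libraries and 52.3, 64.9 and 48.3 CPM in 3NC libraries. In CPM the 3NC libraries were above the 9 others. The means were 33.9 ± 4.72 CPM in OV, 36.3 ± 3.8 in KD, 39.0 ± 2.78 in 5NC and 55.2 ± 8.69 in 3NC (SD, n = 3 each). In FPKM 3NC replicate 3 (39.73) was just below 5NC replicate 1 (39.8).

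Hsd3b1, which converts pregnenolone to progesterone (chr3:98842356-98859794), had 124, 118 and 156 CPM in OV libraries and 157, 193 and 154 CPM in KD libraries. It had 215, 155 and 188 CPM in 5NC libraries and 176, 136 and 118 CPM in 3NC libraries, and OV replicate 3 was just above 5NC replicate 2. Hsd3b6, its adult Leydig cell paralog, had 22.7, 49.5 and 88.2 CPM in OV libraries, 55.6, 78.4 and 52.3 CPM in KD libraries, 69.6, 45.6 and 94.3 CPM in 5NC libraries and 48.1, 82.2 and 56.0 CPM in 3NC libraries. The paralogs are close in sequence, and the sources used here do not say how shared reads were counted, so their split is uncertain. Cyp17a1 (chr19:46667165-46673000) had 230.1, 356 and 709.9 CPM in OV libraries, 432, 722 and 518 CPM in KD libraries, 814, 479 and 689.6 CPM in 5NC libraries and 577, 789 and 749.9 CPM in 3NC libraries. No pair of groups was free of overlap for Cyp17a1, and OV replicates 1 and 3 lay far apart.

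Hsd17b3, which reduces androstenedione to testosterone (chr13:64058274-64089262), had 44.2, 61.2 and 78.7 CPM in OV libraries and 54.4, 80.4 and 52.5 CPM in KD libraries. It had 106, 44.0 and 72.3 CPM in 5NC libraries and 52.0, 61.7 and 61.4 CPM in 3NC libraries. Both the highest and the lowest value of Hsd17b3 were in 5NC. Insl3 (chr8:71689252-71690577) had 690.3, 690.7 and 694 CPM in OV libraries and 626, 899.5 and 696 CPM in KD libraries, against 1538, 755 and 825 CPM in 5NC libraries and 759, 654 and 757 CPM in 3NC libraries. The OV libraries were almost alike for Insl3 and below all of 5NC, where replicate 1 stood far above the others.

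**Figure D1:**
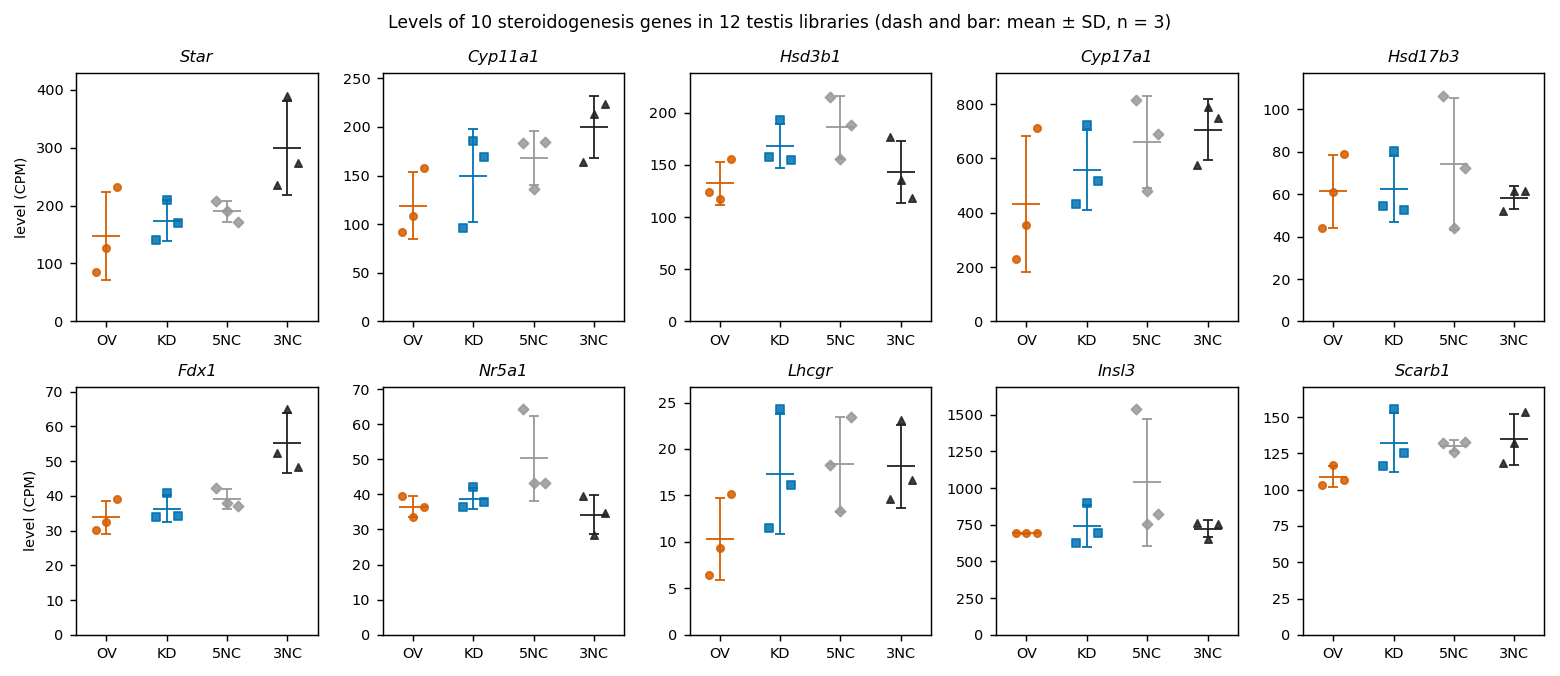
Level of each of the 10 genes in CPM (vertical axis, from 0) in the OV, KD, 5NC and 3NC libraries; points are libraries and the dash and bar give the mean ± SD of 3. Star and Fdx1 are higher in all 3NC libraries than in every other library, and Nr5a1 is higher in all 5NC libraries. The share of all genes with such a pattern was not computed.

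By group means, OV was lowest of the 4 groups for 8 of the 10 genes, the exceptions being Hsd17b3 and Nr5a1, which were lowest in 3NC. The highest mean was in 3NC for 5 genes (Star, Cyp11a1, Cyp17a1, Fdx1 and Scarb1) and in 5NC for the other 5. KD lay between the other groups for all 10. In the plot of deviations, OV replicate 1 was the lowest library for Star, Cyp11a1, Cyp17a1, Fdx1, Lhcgr and Scarb1, and 5NC replicate 1 was the highest for Hsd3b1, Cyp17a1, Hsd17b3, Nr5a1 and Insl3. In whole testis RNA, fewer Leydig cells, less RNA of these genes per Leydig cell and differences in other cells cannot be told apart.

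**Figure D2:**
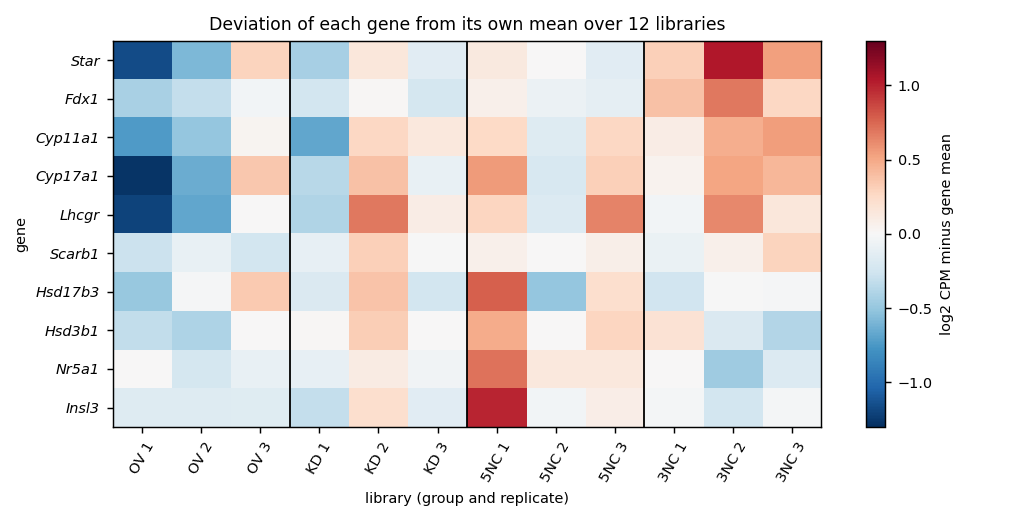
Each gene's log2 CPM minus its own mean over 12 libraries (colour; red above, blue below) for 10 genes (rows) and 12 libraries (columns, by group). OV replicates 1 and 2 are blue for Star, Fdx1, Cyp11a1, Cyp17a1 and Lhcgr, and 5NC replicate 1 is red for Hsd17b3, Hsd3b1, Nr5a1 and Insl3.

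OV against 5NC asks how the genes stood when lncRNA8276 was overexpressed. All 10 had a lower mean in OV, with log2 fold changes of -0.83 to -0.21 and a median of -0.48, while the median of all 16320 genes tested was -0.002 and 50.3% of them were lower. No member passed: 0 of 10 were called by edgeR's quasi-likelihood test (Benjamini-Hochberg adjusted p under 0.05), where 0.0% of all genes were called. DESeq2 and limma voom with sample weights also called 0 of the 10, against 45 of 20432 and 7 of 16320 genes tested. At an unadjusted edgeR p under 0.05 there were 5 of 10, against 10.4% of all genes. The set was chosen with earlier results of these data known, and several of its genes vary together, so these shares only describe. These 5 were Nr5a1 (-0.46 ± 0.15, SE), Hsd3b1 (-0.49 ± 0.16), Scarb1 (-0.26 ± 0.11), Insl3 (-0.59 ± 0.24) and Lhcgr (-0.83 ± 0.36), with edgeR adjusted p of 0.4045 for the first pair and up to 0.458 for the rest. For Nr5a1, Insl3 and Scarb1 all OV libraries were below all 5NC libraries in CPM, which held for 7.56% of all genes.

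The remaining 5 genes had wider errors or smaller differences in OV against 5NC. Cyp17a1 had a log2 fold change of -0.61 ± 0.40, Cyp11a1 of -0.50 ± 0.27 and Star of -0.36 ± 0.35, all with the wide scatter of the OV libraries. Hsd17b3 had -0.27 ± 0.32 and Fdx1 -0.21 ± 0.13. Without OV replicate 1, Star had -0.08 ± 0.29 and Cyp17a1 -0.31 ± 0.35. Without 5NC replicate 1, Insl3 had -0.19 ± 0.12, Nr5a1 -0.25 ± 0.13 and Hsd17b3 0.07 ± 0.28, and the median of the 10 was -0.28, with 9 lower.

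Same-numbered libraries of these groups deviated together, weakly, and with the replicate number as a block in a fit of these 6 libraries 3 of the 10 genes fell: Hsd3b1 (-0.49 ± 0.10, edgeR adjusted p = 0.00371), Lhcgr (-0.87 ± 0.17, adjusted p = 0.0078) and Nr5a1 (-0.45 ± 0.11, adjusted p = 0.0217). That fit called 1.35% of all genes. With the same block in a fit of all 4 groups, 0 of the 10 and 0.0% of all genes were called. Sizes were near those without the block, so the calls turn on which fit is taken. The pairing is given by no label, and correlations of like size but opposite sign were found in OV against 3NC (-0.167 and -0.18).

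KD against 3NC asks how the genes stood when lncRNA8276 was inhibited. By sign 6 genes were lower in KD and 4 higher, with a median log2 fold change of -0.05. Single libraries moved that median: it was 0.10 (4 lower) without KD replicate 1, -0.28 (8 lower) without KD replicate 2, 0.00 without KD replicate 3, -0.16 without 3NC replicate 1, and -0.03 without 3NC replicate 2 or 3. Fdx1 had -0.61 ± 0.13 (edgeR adjusted p = 0.116) and Star -0.79 ± 0.34 (adjusted p = 0.764), and both had all KD libraries below all 3NC libraries, which held for 8.74% of all genes. Cyp11a1 had -0.42 ± 0.27 and Cyp17a1 -0.34 ± 0.40. Hsd3b1 (0.23 ± 0.16), Nr5a1 (0.18 ± 0.16), Hsd17b3 (0.10 ± 0.32) and Insl3 (0.03 ± 0.24) were on the higher side, and Scarb1 (-0.02 ± 0.11) and Lhcgr (-0.07 ± 0.35) were near 0.

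Of the 10 genes 0 were called in KD against 3NC by edgeR, where 0.178% of all genes were called, and 2 had an unadjusted p under 0.05, against 6% of all genes. DESeq2 called 1 of the 10, Fdx1 (adjusted p = 0.00561), and 0.343% of all genes. Limma voom with sample weights also called 1, Fdx1 (adjusted p = 0.0038), and 0.65% of all genes. Without 3NC replicate 2 its log2 fold change was -0.47 ± 0.12 with edgeR.

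The difference between the OV change and the KD change was tested for each gene. None of the 10 was called by edgeR, DESeq2 or weighted voom, against 0.0613% of all genes with edgeR. DESeq2 called 87 of 17660 genes tested and weighted voom 53 of 16320. With edgeR 3 of 10 had an unadjusted p under 0.05, against 15.7% of all genes. Those were Hsd3b1 (OV change minus KD change -0.72 ± 0.23) and Nr5a1 (-0.64 ± 0.22), both with edgeR adjusted p = 0.257, and Fdx1 (0.40 ± 0.18, adjusted p = 0.311).

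**Figure D3:**
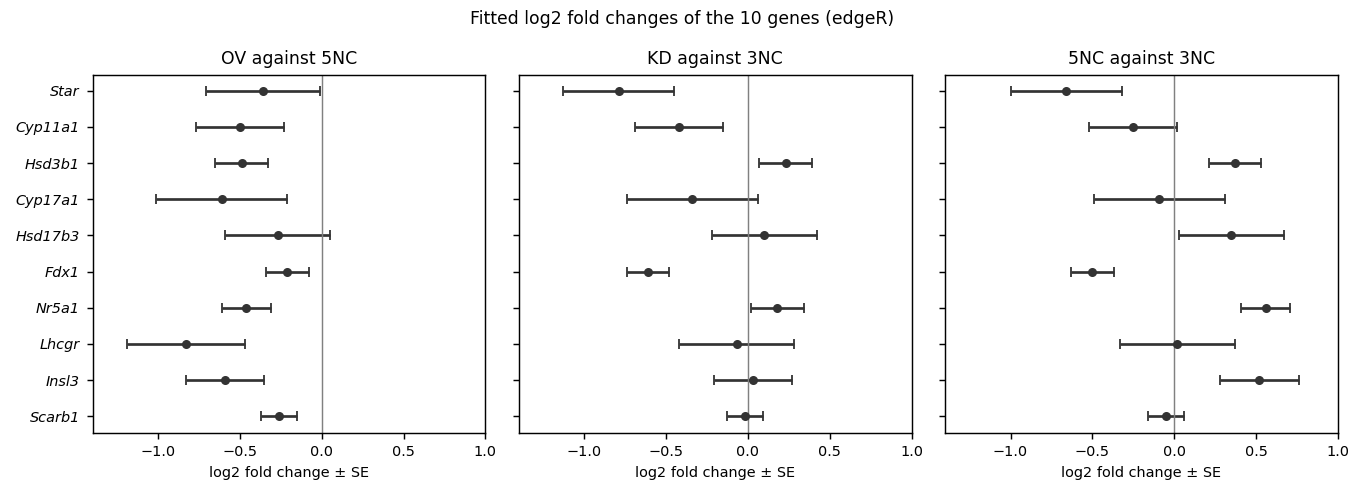
Log2 fold change ± SE (edgeR, horizontal axis) of the 10 genes in OV against 5NC, KD against 3NC and 5NC against 3NC. All 10 points are left of 0 in OV against 5NC, while Star, Cyp11a1, Cyp17a1, Fdx1 and Scarb1 are left of 0 in all 3 panels.

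Means of the control groups lay apart for some of the 10 genes, with 5 lower and 5 higher in 5NC and a median log2 fold change of -0.01. In 5NC against 3NC, Star had a log2 fold change of -0.66 ± 0.34, Fdx1 -0.50 ± 0.13 (edgeR adjusted p = 0.172) and Cyp11a1 -0.25 ± 0.27. Nr5a1 had 0.56 ± 0.15 (adjusted p = 0.231), Insl3 0.52 ± 0.24, Hsd3b1 0.37 ± 0.16 and Hsd17b3 0.35 ± 0.32. Cyp17a1 (-0.09 ± 0.40), Lhcgr (0.02 ± 0.35) and Scarb1 (-0.05 ± 0.11) were near 0. In CPM, all 5NC libraries were below all 3NC libraries for Star and Fdx1 (8.72% of all genes). For Nr5a1 they were all above (8.13% of all genes). With edgeR 0 of the 10 were called, against 0.362% of all genes, and 3 had an unadjusted p under 0.05, against 12.1% of all genes. DESeq2 called 1, Fdx1 (adjusted p = 0.0332), and 0.818% of all genes, and weighted voom called 1, Fdx1 (adjusted p = 0.0291), and 0.821% of all genes. Each comparison that holds 5NC or 3NC shares those libraries with this one.

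Set against the other control, OV had lower means than 3NC for 8 of 10 genes, with a median log2 fold change of -0.51. At an unadjusted edgeR p under 0.05 there were 5 of 10, against 5.34% of all genes, and these shares only describe. Fdx1 fell (log2 fold change -0.71 ± 0.13, edgeR adjusted p = 0.0301), the 1 gene of the 10 called, where 0.319% of all genes were. The call held in 10 of 23 alternatives and was lost in the rest, for example with only these groups in the fit (adjusted p = 0.297), or without OV replicate 1 (0.163), OV replicate 2 (0.154), 3NC replicate 1 (0.0861) or 3NC replicate 2 (0.066, with -0.57 ± 0.12). Leaving out KD replicate 1 (0.0549) or 3 (0.056), or 5NC replicate 2 (0.0546) or 3 (0.0573), also put it just past the threshold.

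Star had -1.02 ± 0.35, Cyp11a1 -0.75 ± 0.27 and Scarb1 -0.30 ± 0.11 in OV against 3NC, with edgeR adjusted p of 0.6065 or more. With Fdx1 these were the 4 genes with all OV libraries below all 3NC libraries, which held for 3.69% of all genes. Lhcgr (-0.81 ± 0.36) and Cyp17a1 (-0.71 ± 0.40) were also lower in OV by mean, but their libraries overlapped. KD against 5NC gave 9 lower means and a median of -0.16, and 0 called with edgeR, DESeq2 or weighted voom, against 0.049% of all genes with edgeR. DESeq2 called 37 of 20432 genes tested there and weighted voom 27 of 16320. In that comparison 1 gene, Nr5a1, had an unadjusted p under 0.05 (-0.37 ± 0.15; 5.06% of all genes) and no overlap, which held for 6.34% of all genes. The median was -0.08 without KD replicate 1, -0.38 without KD replicate 2, -0.07 without 5NC replicate 1 and -0.29 without 5NC replicate 2. OV against KD gave 10 lower means and a median of -0.26, with 0 called by the same 3 tests, against 0.0551% of all genes with edgeR. DESeq2 called 139 of 19244 genes tested in OV against KD and weighted voom 198 of 16320. Scarb1 (-0.28 ± 0.11) was the 1 gene with an unadjusted p under 0.05, against 7.84% of all genes, and 0 of the 10 were free of overlap, against 9.74% of all genes above and 9.65% below. The median was -0.12 without OV replicate 1 and -0.10 without KD replicate 2, with 8 lower in each case, and -0.17 without OV replicate 2.

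The 10 genes were all above their own mean log2 CPM in KD replicate 2 and 5NC replicate 1, and all below it in OV replicate 2. The other libraries had genes on both sides. Over the 12 libraries their pairs correlated to unlike degrees, with 2 pairs negative in Pearson r. Of their 45 pairs, 16 had a Pearson correlation of log2 CPM with an adjusted p under 0.05 (permutation test with 100000 resamples, two-sided, Benjamini-Hochberg over 45 pairs), and 14 had a Spearman correlation past it. The libraries share group, and the levels pool all groups, so the values describe these libraries. Resampling moved libraries across the 4 groups, so differences between groups enter these p-values. No share over all pairs of genes was computed. Star and Fdx1 had r = 0.92 (permutation p = 3e-05, adjusted p = 0.000675) and rho = 0.97 (p = 1e-05, the smallest the resamples can give, adjusted p = 0.00045), and r = 0.87 without the 2 libraries farthest from the median of Star. Cyp17a1 and Lhcgr had r = 0.92 (permutation p = 3e-05, adjusted p = 0.000675) and rho = 0.83 (p = 0.00132, adjusted p = 0.00849), and r = 0.75 without the 2 farthest libraries. Cyp11a1 and Cyp17a1 had r = 0.90 (permutation p = 6e-05, adjusted p = 0.0009) and rho = 0.86 (p = 0.00089, adjusted p = 0.00801), and r = 0.89 without the 2 farthest libraries.

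The regulator and the peptide hormone were alike as well. Nr5a1 and Insl3 had r = 0.89 (permutation p = 0.00074, adjusted p = 0.00476) and rho = 0.76 (p = 0.00655, adjusted p = 0.0227), and r = 0.63 without the 2 libraries farthest from the median of Nr5a1, one of which is 5NC replicate 1. Hsd3b1 and Nr5a1 had r = 0.74 (permutation p = 0.00275, adjusted p = 0.0155) and rho = 0.76 (p = 0.00627, adjusted p = 0.0227), and r = 0.57 without the 2 farthest. Star with Nr5a1 had r = -0.19 (permutation p = 0.53, adjusted p = 0.645) and rho = -0.13 (p = 0.682, adjusted p = 0.748), and r = 0.18 without the 2 farthest libraries. Fdx1 with Nr5a1 had r = -0.23 (permutation p = 0.447, adjusted p = 0.575) and rho = 0.00 (adjusted p = 1), and r = 0.27 without the 2 farthest libraries, so r was no longer negative for either pair. Hsd17b3 with Insl3 had r = 0.72 (permutation p = 0.00893, adjusted p = 0.0287) and rho = 0.44 (p = 0.154, adjusted p = 0.239), and r = 0.53 without the 2 farthest. With Cyp17a1, Hsd17b3 had r = 0.69 (permutation p = 0.0128, adjusted p = 0.0361) and rho = 0.76 (p = 0.00627, adjusted p = 0.0227), and r = 0.76 without the 2 farthest.

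**Figure D4:**
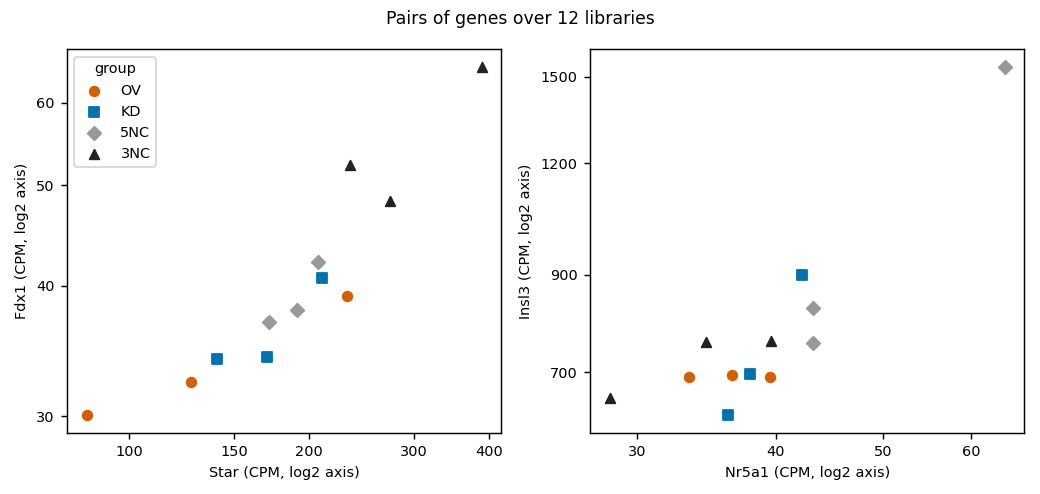
Levels (CPM, log2 axes) of Star and Fdx1 (left) and of Nr5a1 and Insl3 (right) in 12 libraries, marked by group. Star and Fdx1 order the libraries alike, with 3NC at the top, while 5NC replicate 1 stands alone at the upper right for Nr5a1 and Insl3.

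The ratio of Fdx1 to Nr5a1 in CPM, chosen after the values were seen and so given without a test, was 0.760, 0.968 and 1.07 in OV libraries, 0.939, 0.963 and 0.901 in KD libraries, 0.656, 0.878 and 0.855 in 5NC libraries and 1.32, 2.29 and 1.39 in 3NC libraries. The ratio of Star to Hsd3b1 was 0.687, 1.08 and 1.49 in OV libraries, 0.893, 1.09 and 1.1 in KD libraries, 0.962, 1.23 and 0.912 in 5NC libraries and 1.33, 2.87 and 2.31 in 3NC libraries. For the first ratio 3NC lay above all other libraries, and for the second it overlapped OV.

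The gene most like each member over 12 libraries was taken by Pearson correlation of log2 CPM among 15203 candidates with a mean of at least 1 CPM, as a description. Fdx1 was most like Insig1, a sensor of sterols in the endoplasmic reticulum (r = 0.952), Star was most like Gpt2, an aminotransferase (r = 0.931), and Cyp11a1 was most like Acat2, an acetyl-CoA acetyltransferase (r = 0.912). Cyp17a1 was most like Ass1, argininosuccinate synthase (r = 0.972). The others were Sparcl1 for Hsd3b1 (r = 0.921), Rbbp9 for Hsd17b3 (0.909), Ccdc85b for Nr5a1 (0.956), Ces1d for Lhcgr (0.906), Kif1c for Insl3 (0.954) and Cenpo for Scarb1 (0.89). The mean of the 10 was followed most closely by Vstm4 (r = 0.938), Ass1 (0.935), Ephx1 (0.92), Fads2 (0.911), Acat2 (0.904), Fads1 (0.894), Alas1 (0.892) and Scd2 (0.888).

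Other genes of the pathway were read from lists of related enzymes, cholesterol supply and LH signalling. In OV against 5NC, 15 of 20 other steroid enzymes had lower means (median log2 fold change -0.24), as did 10 of 18 cholesterol supply genes (median -0.06) and 10 of 27 genes of LH signalling and regulation (median 0.03), with 0 called in each. In KD against 3NC, 9 of 20 enzymes (median 0.04), 6 of 18 supply genes (median 0.05) and 16 of 27 signalling genes (median -0.04) had lower means, with 1 called. The called gene was Mrap, an accessory protein of melanocortin receptors, which fell by 1.59 on the log2 scale (SE 0.25, edgeR adjusted p = 0.0205). Mrap had 3.01, 3.82 and 5.43 CPM in OV libraries, 3.57, 7.06 and 3.57 CPM in KD libraries, 6.66, 5.72 and 4.55 CPM in 5NC libraries and 14.6, 14.2 and 14.0 CPM in 3NC libraries. It was also lower in 5NC than in 3NC (-1.34 ± 0.25, adjusted p = 0.0333) and in OV than in 3NC (-1.80 ± 0.26, adjusted p = 0.00581), so 3NC stood above the 3 other groups. The call of Mrap held in 22 of 23 alternatives in OV against 3NC and in 17 of 23 in KD against 3NC. In that second comparison it was lost without KD replicate 1 or 3 or without any 1 of the 3NC libraries (adjusted p 0.0528 to 0.181). In 5NC against 3NC it held in 13 of 23 and was lost without any 1 library of either group (0.0602 to 0.187).

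In OV against 3NC, Hsd17b7, an enzyme of cholesterol synthesis that can also make estradiol, fell by 1.05 on the log2 scale (SE 0.19, edgeR adjusted p = 0.0361), with means of 7.36 ± 1.71 CPM in OV, 8.55 ± 2.1 in KD, 9.16 ± 0.761 in 5NC and 15.2 ± 1.73 in 3NC (SD, n = 3 each). Nr2f2, the transcription factor COUP-TFII of Leydig progenitors, rose (1.02 ± 0.20, adjusted p = 0.0494), with 8.03 ± 0.564 CPM in OV, 6.56 ± 1.44 in KD, 7.49 ± 1.65 in 5NC and 3.94 ± 0.438 in 3NC. Hsd17b7 was called in 9 of 23 alternatives, and the call was lost without OV replicate 1 or 2, KD replicate 3, or any 1 library of 5NC or 3NC (adjusted p 0.0546 to 0.161). Nr2f2 was called in 6 of 23, and the call was lost without any 1 library of OV or 3NC, KD replicate 1 or 2, or 5NC replicate 1 or 3 (0.0636 to 0.229). Mrap, Hsd17b7 and Nr2f2 each had every 3NC library on one side of the 9 others, a pattern whose share of all genes was not computed. Lower means in OV against 3NC were found for 12 of 20 enzymes, 5 of 18 supply genes and 10 of 27 signalling genes. Medians were -0.06, 0.13 and 0.02. Hsd17b7 was the 1 enzyme called, Mrap (lower) and Nr2f2 (higher) were the signalling genes called, and 1 supply gene was called lower.

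**Figure D5:**
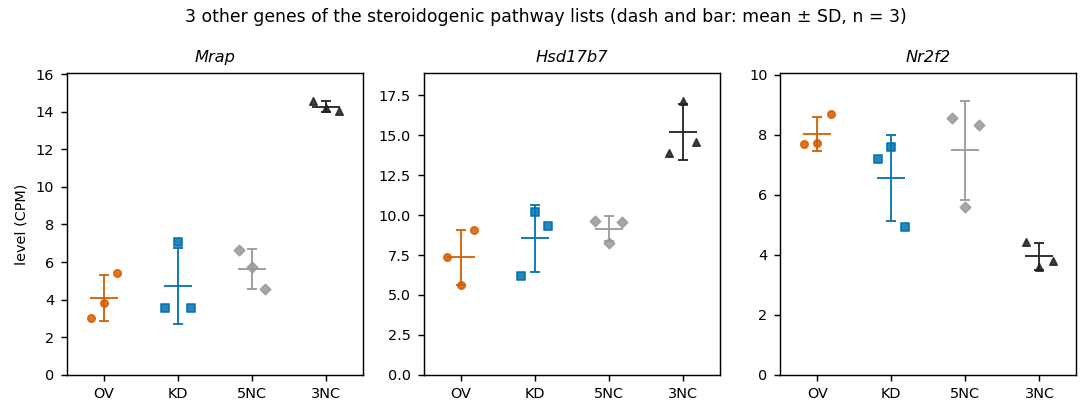
Level in CPM (vertical axis, from 0) of Mrap, Hsd17b7 and Nr2f2 in OV, KD, 5NC and 3NC libraries; points are libraries and the dash and bar give the mean ± SD of 3. The 3NC libraries are above all others for Mrap and Hsd17b7 and below all others for Nr2f2. The share of all genes with such a pattern was not computed.

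Means of markers for other cell types also lay apart between groups. In OV against 5NC, 8 of 11 other adult Leydig cell markers had lower means (median log2 fold change -0.27). Among them was Inha, the inhibin alpha subunit, at -0.79 ± 0.16 (edgeR adjusted p = 0.258). The 3 with higher means included Vcam1 (0.36 ± 0.21). Lower means were also found for 17 of 19 Sertoli cell markers (median -0.18) and 10 of 10 peritubular markers (median -0.49), and higher means for 18 of 18 macrophage markers (median 0.68), with 0 called in each list. Summed macrophage markers were 540.3 to 793 CPM in OV libraries and 452 to 505 CPM in 5NC libraries. Germ cell markers had a median of -0.02 and sums of 19260 to 20410 CPM in OV and 18490 to 22640 CPM in 5NC. The part of these cells in the differences of the 10 genes was not tested.

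In 5NC the summed adrenal cortex markers were 23.7 to 104.9 CPM, against 21.7 to 28.9 CPM in 3NC. Of the 3 genes of that list tested, 2 had higher means in 5NC. The other, Mrap, was lower there (-1.34 ± 0.25) and had 14.05 to 14.59 CPM in 3NC libraries. Akr1b7, an aldo-keto reductase that is also abundant in the mouse vas deferens, had 11.1, 80.1 and 0.961 CPM in 5NC libraries and at most 1.03 CPM in 3NC libraries. Cyp21a1, the 21-hydroxylase, had 34.4, 18.7 and 18 CPM in 5NC libraries and 13.8, 6.39 and 7.35 CPM in 3NC libraries. Cyp11b1, Cyp11b2 and Mc2r of the same list were at no more than 0.488 CPM in any library. Mc2r is also on the list of progenitor and fetal Leydig cell markers. Markers of Leydig progenitor and fetal Leydig cells had higher means in 5NC than in 3NC for 11 of 12 (median log2 fold change 0.47). Of these 12, 1 was called higher by edgeR, where 0.362% of all genes were called. In KD against 3NC, 10 of these 12 had higher means (median 0.47), with 0 called. Epididymis and fat markers summed to 28.2 to 142 CPM in 5NC libraries and 18.4 to 23.4 CPM in 3NC libraries. Whether these markers have a part in the values of Nr5a1, Insl3 and Hsd3b1 in 5NC was not tested.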

How the data were processed

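Total RNA of mouse testis was sequenced in 12 libraries. For each gene and library the authors deposited an expected count and a normalised value. Of the expected counts 88% were whole within 1e-06, and all were rounded here. The unit FPKM of those deposited values was inferred here: over 5204 genes above 500 reads, value per read followed library total within a median CV of 0.528%. The build is mm10, per the submitters' processing notes. The sources used here do not name the aligner, counter, annotation or strandedness. A further 18 per-sample columns, of no library in this series, were left unused.

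The test was run in edgeR 4.0.16 under R 4.3.3 (quasi-likelihood, robust, TMM, filterByExpr with a minimum count of 10 and total of 15), in one fit of 4 groups without covariates; 16320 genes passed, among them all 10 members, with a common BCV of 0.13. Calls needed a Benjamini-Hochberg adjusted p under 0.05 over all tested genes of a comparison. The approximate SE divides the log2 fold change by the root of F. The code was tested on simulated data. DESeq2 1.42.0, limma 3.58.1 and the other alternatives are given in the closing section. Levels are mean CPM ± SD. Depth was alike across libraries, and each gene's scatter between libraries entered its SE.

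Replicate numbers come from the titles. Deviations from group means of OV and 5NC libraries with the same number correlated at 0.165, 0.149 and 0.109, all over 0.1. A blocked fit is therefore given beside that comparison. The pairing is inferred from these data and from no label, and OV against 3NC gave -0.0206, -0.167 and -0.18. The 10 genes and the 12 lists of related genes and cell markers (191 entries, 186 matched) were chosen with earlier results of these data known. Named genes of those lists are those called in a pairwise comparison, up to 4 of smallest p, or else the gene of smallest p in OV against 5NC or KD against 3NC; the most alike genes were taken by correlation. Some genes named by this rule are not reported here. In addition, Hsd3b6, Akr1b7, Cyp21a1, Cyp11b1, Cyp11b2, Mc2r and Prm2 were named after their values were seen. Gene positions and promoter sequences are from RefSeq, GRCm38.p6.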

Additional observations from a re-analysis of the deposited data

How the results depend on the processing

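The lower means of all 10 genes in OV against 5NC held in every alternative except without 5NC replicate 1, where Hsd17b3 was higher. The number of the 10 called stayed 0 there except for 3 with the replicate block in a fit of those groups only. In KD against 3NC it was 1 with DESeq2, 1 with limma voom with sample weights (the only voom fit run) and 2 with the block in a fit of those groups only (Star, -0.77, and Fdx1, -0.59; numbers there did not pair, with correlations of 0.0079 to 0.0558). In 5NC against 3NC it was 1 with DESeq2 and 1 with voom. In OV against 3NC it was 0 with only those groups, with the block in either fit and with limma on log2(FPKM + 0.1) or log2(FPKM + 1), and 0 to 1 when libraries were left out. The cause was not tested.

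Counts over all genes moved more. For OV against 5NC they were 45 with DESeq2, 7 with voom and 215 with the block in those groups, and 0 to 36 leaving out libraries. For KD against 3NC they were 70, 106 and 77, with 16 on log2(FPKM + 0.1), and 10 to 34 leaving out libraries. For 5NC against 3NC they were 151, 134 and 94, with 31 and 32 on the FPKM scales, and 16 to 76 leaving out libraries. For OV against 3NC they were 105 and 203 with DESeq2 and voom, 18 with only those groups, 29 and 4 with the block, 28 on log2(FPKM + 0.1), and 27 to 135 leaving out libraries. For KD against 5NC they were 37, 27, 15 with only those groups and 18 with the block, and 4 to 12 leaving out libraries. For OV against KD they were 139, 198, 33 with only those groups, 31 and 46 with the block, and 5 to 133 leaving out libraries. For the difference of the changes they were 87, 53 and, on log2(FPKM + 0.1), 6, and 4 to 23 leaving out libraries.

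In KD against 3NC, voom gave Lhcgr 0.018 and Insl3 -0.059, and the FPKM scales gave Insl3 -0.0058 and -0.0058; in 5NC against 3NC, voom gave Scarb1 0.011. Leaving out libraries gave Hsd17b3 -0.55 to 0.075 in OV against 5NC. In KD against 3NC it gave Hsd17b3 -0.13 to 0.21, Lhcgr -0.39 to 0.16, Insl3 -0.13 to 0.14 and Scarb1 -0.16 to 0.079. In 5NC against 3NC it gave Cyp17a1 -0.27 to 0.10, Hsd17b3 -0.00094 to 0.62, Lhcgr -0.20 to 0.24 and Scarb1 -0.13 to 0.063. Leaving out OV replicate 3 and 3NC replicate 2 together was chosen after seeing the data; the Fdx1 call in OV against 3NC held there (adjusted p = 0.00946). Mrap kept its direction in all alternatives.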

Other observations

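Other genes of the marker lists were called in comparisons with 3NC. Kitl, the Kit ligand made by Sertoli cells, fell in KD against 3NC (-0.94 ± 0.15, edgeR adjusted p = 0.0229) and in 5NC against 3NC (-0.80 ± 0.15, adjusted p = 0.039), and had -0.61 ± 0.15 in OV against 3NC (adjusted p = 0.201). Of the 19 Sertoli markers listed, Kitl included, 14 had higher means in KD against 3NC (median 0.08) and 18 in 5NC against 3NC (median 0.23). Means of Kitl were 21.9 ± 0.107 CPM in OV, 17.4 ± 1.99 in KD, 19.2 ± 0.422 in 5NC and 33.3 ± 9.24 in 3NC (SD, n = 3 each). Those calls held in 17 and 9 of 23 alternatives. Tagln, a smooth muscle protein of peritubular cells, fell in OV against 3NC (-0.85 ± 0.17, adjusted p = 0.0479), a call that held in 5 of 23 alternatives. In 5NC against 3NC the fat droplet gene Plin1 (1.47 ± 0.27) and the epididymis gene Spink8 (3.79 ± 0.63) rose, each with adjusted p = 0.0333, in 11 and 7 of 23 alternatives. Endothelial markers had lower means in 7 of 12 genes in OV against 5NC (median -0.12) and higher means in 12 of 12 in KD against 3NC (median 0.22), with 0 called in either. At an unadjusted p under 0.05, Cldn5, a junction protein of endothelium, had 0.67 ± 0.16 in KD against 3NC. Their part in the values of the steroidogenesis genes was not tested.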
